A study of Bos taurus with 18 samples.

Results

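The comparison set the hypothalamus of 30-month-old Angus cows against that of 6-month-old Angus cows. The 3 libraries of each age were chosen by their labelled tissue and age, which makes 6 of the 18 libraries of the study. The other libraries hold the pituitary of the same cows and both tissues of 3 cows of 18 months. Per the labels, the 6-month-old cows had just been weaned, those of 18 months were sexually mature, and those of 30 months had produced their first calf. Per the labels, none of the cows was in heat at slaughter, no treatment was given, and the part collected was the upper hypothalamus. The libraries were made from poly(A) RNA with random primers. T2, T4 and T6 are replicates 1, 2 and 3 of 6 months, and T14, T16 and T18 are replicates 1, 2 and 3 of 30 months. Age, weaning and calving change together across these groups and cannot be told apart.

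The hypothalamus links the nervous system to the pituitary. Its neurons release peptides such as gonadotropin-releasing hormone, which drives the gonadotropins of the pituitary, and others that act on growth, milk, appetite and stress. The tissue is a mixture of many neuron types with glia, ependyma and vessels, and levels in bulk tissue follow both the make-up of the piece collected and the RNA within each cell. Fewer cells of a type and less RNA per cell cannot be told apart here. The deposited tables name gene models by number, either "gene" with a number or, for models the authors assembled themselves, "Bos_taurus_newGene" with a number, called new models below. None of these names (0 of 27376) matched the gene table used here, so markers of neurons or glia could not be looked up, the tissue label was not checked against markers, and no function is given for any model.

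Total counts ran from 29773484 in T6 to 33502113 in T16, and 19946 to 21087 models had at least 1 count in a library. In genotype, each of the 6 libraries matched best the pituitary library of the same age and replicate number, at 99.3% to 99.7% of sites. These pairs were taken as the same cow, which the sample titles do not state. The libraries did not fall apart by age. On the first principal component of log2 CPM (counts scaled to a total of 1000000 per library), which held 48.5% of the variance, T2, T6 and T16 lay at -49.3, -96.8 and -63.0, and T4, T14 and T18 lay at 43.1, 78.6 and 87.3. T16, a 30-month library, correlated more closely with T2 (r = 0.942) and T6 (r = 0.935) of 6 months than with T14 (r = 0.893) and T18 (r = 0.885) of its own age. T4, a 6-month library, correlated more closely with T14 (r = 0.947) and T18 (r = 0.944) than with T2 (r = 0.922) and T6 (r = 0.896). These correlations are over 18088 gene models within pairs of libraries, and models are not independent replicates.

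The same split stood in a second readout. A table of sites with a single-nucleotide polymorphism (SNP), deposited with the counts, records how many reads covered each site in each library. Over 8246 models with a mean of at least 50 such reads in their exons, the first component held 52.05% of the variance, with T2, T6 and T16 at -25.7, -45.9 and -31.5 and T4, T14 and T18 at 20.1, 39.0 and 44.0. The share of SNP-site reads that lay in introns was 19.8% in T2, 13.7% in T6 and 16.2% in T16, against 20.7% in T4, 21.6% in T14 and 21.4% in T18. With this share as a covariate, an alternative added after seeing the data, edgeR called 0 models at an adjusted p under 0.05, and 668 had an unadjusted p under 0.05. The part of any cell mixture in the age comparison was not tested. A further measure went with age and not with the split. Over 4426 models, the median log2 ratio of site reads in the 3′ untranslated region (UTR) to those in coding sequence, centred on each model's mean, was -0.13, -0.10 and -0.09 in T2, T4 and T6 and 0.13, 0.08 and 0.15 in T14, T16 and T18. All 3 values of 30 months lay above all 3 values of 6 months, and the part of this shift in the results below was not tested.

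**Figure D1:**
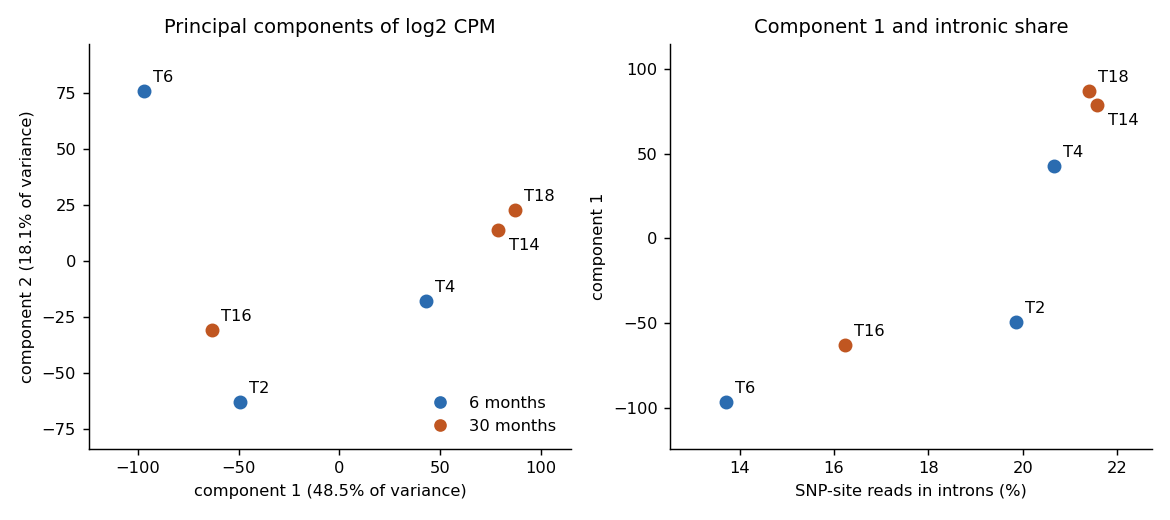
Each point is 1 of the 6 hypothalamus libraries, blue for 6 months and orange for 30 months. Left, the first 2 principal components of log2 CPM; right, the share of SNP-site reads in introns (%) against component 1. T2, T6 and T16 lie below 0 on component 1 and T4, T14 and T18 above it, so each age has libraries on both sides.

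The question was which gene models differ between the freshly weaned and the once-calved cows. Of 27376 models, 18088 passed the expression filter and were tested on counts with edgeR's quasi-likelihood test, and 0 (0%) passed an adjusted p under 0.05. The smallest adjusted p was 0.271, shared by gene11043 and gene4067, and the next was 0.979. At an unadjusted p under 0.05 there were 234 models higher at 30 months (1.29%) and 293 lower (1.62%), 527 in all, where 5% of the models tested would be 904.4. The biological coefficient of variation was 50.004%. DESeq2 called 43 models at an adjusted p under 0.05 (0.238%), 17 higher and 26 lower. The cows of a group were separate animals, so the p-values set the age difference against the spread between libraries of different cows. Each cow gave a single hypothalamus library, so differences between cows, pieces collected and libraries cannot be told apart in that spread.

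A model is called non-overlapping where all 3 libraries of one age lay above all 3 of the other in CPM. There were 690 such models higher at 30 months (3.81%) and 634 lower (3.51%), 1324 in all or 7.32% of those tested. Were the 6 libraries in random order in each model, 5% of the models tested, or 904.4, would be expected in each direction. Both counts lay below that number, so non-overlap by itself is no sign of an age difference. Of these, 188 higher and 216 lower models also had an unadjusted p under 0.05. All 17 models that DESeq2 called higher and 25 of its 26 lower ones were non-overlapping. In 4 of the higher models the 6-month libraries all had a count of 0, and in 8 of the lower models the 30-month libraries did. Such models passed the expression filter only through all 3 libraries of the other age. Their non-overlap was thus fixed in advance and is no support for an age difference. New models made up 3 of these 4 and 8 of these 8, and 2439 of the 18088 models tested.

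Gene11043, a model of 749 bases placed on chromosome 8 by the sites next to it, had the smallest p. It had 2, 1 and 1 counts in T2, T4 and T6 and 1304, 3503 and 615 counts in T14, T16 and T18. With so few counts at 6 months it passed the expression filter only through the 30-month libraries, which fixed its non-overlap. The ratio of the summed counts, scaled for library size, was 1310 with an exact counting interval of 512 to 4811, which covers counting error only. In CPM the 30-month libraries held 39.1, 105 and 20.2, and no 6-month library exceeded 0.0592. At 18 months it was at 26.8 and 17.7 CPM in replicates 1 and 3 and at 0.116 CPM in replicate 2. The pituitary of the same cows gave the same picture: 2, 0 and 0 counts at 6 months and 1127, 1692 and 673 at 30 months (edgeR adjusted p = 0.0340 among the pituitary libraries alone, where 0.0223% of models were called). The pituitary of the 18-month cows held 21.4, 0 and 49.9 CPM, so replicate 2 was again the cow with next to none. Gene11043 was thus high in both tissues of 5 cows and near 0 in both tissues of 4, and 1 of these 4 was 18 months old.

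Gene4067 had the smallest SE of the 10 higher models chosen by p. It is 8649 bases long, and the SNP sites annotated to it span 106496542 to 106564185 of chromosome 3. It was at 11.9, 11.9 and 13.02 CPM in T2, T4 and T6 and at 51.2, 40.5 and 43.3 CPM in T14, T16 and T18. The 3 libraries of each age sat close together and the ages were far apart, a difference of 1.87 ± 0.19 on the log2 scale (SE; edgeR adjusted p = 0.271). At 18 months it held 13.9999, 35.4 and 44.9 CPM. The pituitary was at 48.0, 50.9 and 50.8 CPM at 6 months and 47.9, 37.1 and 46.2 CPM at 30 months, close to the 30-month hypothalamus at both ages. Its SNP sites did not show the step in the hypothalamus. Reads at its 16 exonic sites came to 99.5, 108 and 100.4 RPM (exonic site reads scaled to the same total) at 6 months and 132, 95.9 and 104 RPM at 30 months, and the ages overlapped. At none of these 16 sites (14 coding, 2 in the 3′ UTR) did the 30-month libraries all lie above or all below the 6-month ones. The counts of gene4067 were thus 3.66-fold apart while the reads at its sites overlapped, and the cause was not tested.

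Gene13269, of 12424 bases on chromosome 10 (sites from 88466445 to 88527457), was at 20.8, 29.5 and 16.5 CPM in T2, T4 and T6 and at 71.4, 60.8 and 110.5 CPM in T14, T16 and T18. The difference was 1.86 ± 0.32 (log2, SE; edgeR adjusted p = 0.979), and the ages did not overlap. It was higher at 30 months in the pituitary of the same cows too, at 31.4, 29.9 and 34.5 CPM against 89.6, 98.5 and 97.5 CPM, where it passed the test (log2 difference 1.60 ± 0.12 SE, edgeR adjusted p = 0.0340). At 18 months the hypothalamus ranged from 14.7 to 88.0 CPM. Its exonic sites gave 138, 257 and 126 RPM at 6 months and 266, 149 and 222 RPM at 30 months in the hypothalamus. By that readout T4 lay among the 30-month libraries and T16 among the 6-month ones.

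Gene6662, of 2909 bases on chromosome 5, was at 12.6, 9.54 and 7.52 CPM at 6 months and 46.4, 30.8 and 29.3 CPM at 30 months, 3.59-fold higher. Its pituitary values did not overlap either, with 4.20, 4.76 and 1.80 CPM at 6 months and 21.6, 6.90 and 26.5 CPM at 30 months. The same held for gene19114, of 2930 bases and no chromosome here, at 6.43, 4.98 and 5.21 CPM against 21.9, 12.4 and 21.1 CPM in the hypothalamus. In the pituitary gene19114 was at 2.11, 2.57 and 1.49 CPM at 6 months and 10.2, 18.9 and 12.8 CPM at 30 months. Both models were thus higher at 30 months in each tissue, with an adjusted p of 0.703 for gene6662 and 0.337 for gene19114 in the pituitary by edgeR.

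Other higher models did not share this with the pituitary. Gene29661, of 17003 bases, was at 33.9, 30.2 and 37.7 CPM at 6 months and 109, 69.8 and 129 CPM at 30 months. In the pituitary gene29661 went the other way in its mean, from 124.5, 143.5 and 75.2 CPM to 54.8, 44.6 and 85.8 CPM, and those ages overlapped. Gene20161, of 8093 bases on chromosome 17, was at 7.29, 29.1 and 9.58 CPM at 6 months and 97.6, 147 and 127 CPM at 30 months, an 8.08-fold difference. T4 was the highest 6-month library for gene20161, and its pituitary values overlapped, from 9.31 to 103 CPM. Its exonic sites were thinly read, at 24 to 28 reads in the 6-month libraries and 28 to 52 reads in the 30-month ones, which did not overlap after scaling (7.93 to 8.63 RPM and 8.74 to 16.7 RPM).

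Gene1483, of 17035 bases on chromosome 2, was at 27.3, 28.6 and 40.02 CPM against 60.8, 66.8 and 62.7 CPM, while its exonic sites overlapped at 25.6 to 32.7 RPM and 24.7 to 30.7 RPM. Gene4184, of 8492 bases on chromosome 3, was lower in level, at 0.918, 0.769 and 1.12 CPM against 6.03, 3.60 and 4.83 CPM. The new model Bos_taurus_newGene_83290, of 28949 bases with a single site on chromosome 23, had no count in any 6-month library and 188, 1615 and 425 counts in T14, T16 and T18. Against a floor of 3 counts per library it was at least 235-fold higher at 30 months. It passed the expression filter only through the 30-month libraries, which fixed its non-overlap. Its pituitary libraries did not separate by age: all 3 of 6 months had 311 to 827 counts, and those of 30 months had 0, 603 and 0.

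**Figure D2:**
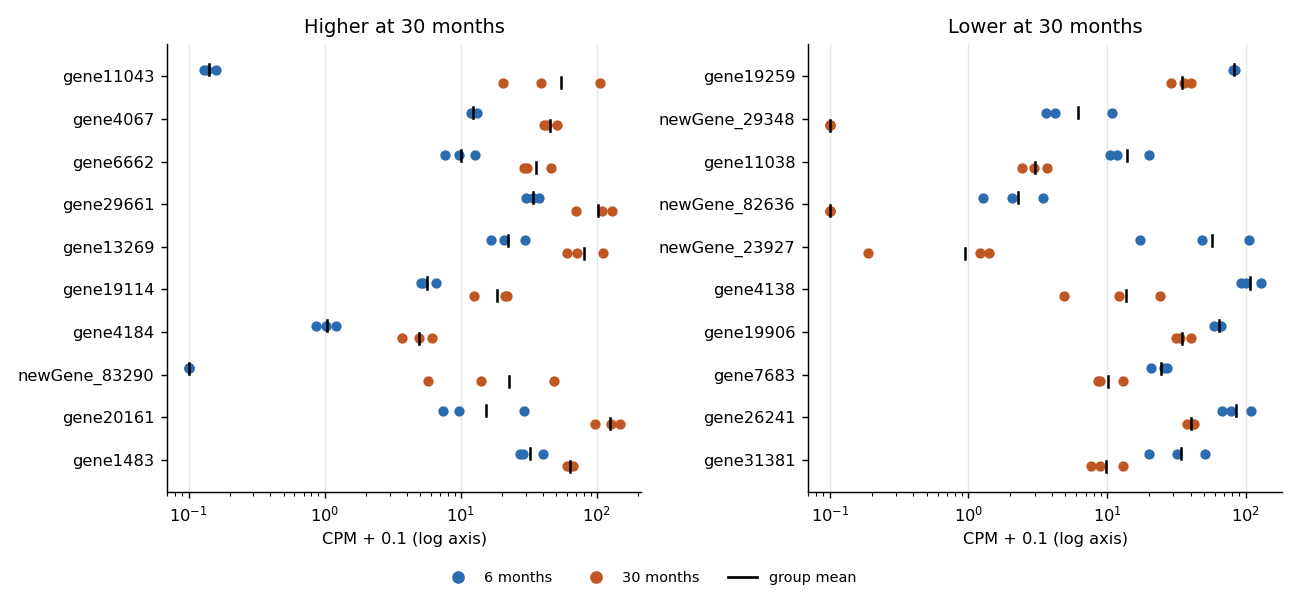
Each row is a gene model (names of new models shortened to newGene), each point a library and each black bar a group mean, on a log axis of CPM + 0.1. The 10 higher and 10 lower models have non-overlapping values, an unadjusted p under 0.05 and the smallest p in their direction; none has an adjusted p under 0.05 by edgeR.

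The lower model with the smallest p was gene19259, of 14136 bases on chromosome 16 (sites from 52220848 to 52232387). It was at 81.2, 81.7 and 83.3 CPM in T2, T4 and T6 and at 28.6, 35.7 and 39.9997 CPM in T14, T16 and T18. The 6-month libraries were close to each other (SD 1.11 CPM), and the difference was -1.24 ± 0.18 (log2, SE; edgeR adjusted p = 0.979). Its exonic sites were thinly read (21 to 48 reads a library) and overlapped, at 14.8, 8.22 and 7.05 RPM against 7.50, 12.5 and 8.03 RPM. The hypothalamus of 18 months, at 32.5, 48.3 and 32.0 CPM, lay near the 30-month level. The pituitary held 38.4 to 58.9 CPM at 6 months and 33.1 to 61.3 CPM at 30 months, with overlap. Gene19906, of 6603 bases, was likewise even within each age, at 66.6, 58.7 and 65.0 CPM against 31.4, 39.9 and 33.2 CPM, and its 18-month values were 33.95, 6.82 and 42.9 CPM.

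Wider steps were found in gene4138 and gene11038. Gene4138, of 26573 bases on chromosome 3 (sites from 110338883 to 110449617), was at 128, 100.8 and 92.6 CPM at 6 months and 12.1, 4.80 and 24.1 CPM at 30 months, 7.84-fold lower. At 18 months gene4138 was at 109, 6.73 and 121 CPM, so replicates 1 and 3 lay at the 6-month level and replicate 2 at the 30-month level. Gene11038, of 9309 bases on chromosome 8, was at 11.6, 19.8 and 10.3 CPM against 3.60, 2.88 and 2.33 CPM. Its exonic sites followed, with 16, 27 and 11 reads at 6 months and 4, 10 and 8 reads at 30 months, which did not overlap after scaling but rest on few reads.

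Gene31381, of 9660 bases on chromosome X (sites from 51119249 to 51246333), was lower by each measure at hand. Its counts were at 31.6, 19.97 and 50.98 CPM at 6 months and 8.78, 7.56 and 12.8 CPM at 30 months. Its exonic sites were at 7.09, 7.05 and 9.74 RPM against 6.13, 4.996 and 4.18 RPM, from 13 to 29 reads a library, and its pituitary was at 14.7, 16.6 and 18.5 CPM against 10.7, 10.9 and 13.01 CPM. None of these sets overlapped between the ages, with an edgeR adjusted p of 0.979 for the hypothalamus and 0.703 for the pituitary.

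Gene7683, of 2067 bases, was at 20.6, 27.1 and 25.6 CPM against 8.75, 12.9 and 8.44 CPM. Gene26241, of 16784 bases on chromosome 23, was at 108, 77.8 and 66.9 CPM against 37.4, 40.5 and 42.2 CPM. The many reads at the exonic sites of gene26241 overlapped between the ages, at 447, 646 and 859 RPM against 485, 357 and 850 RPM. Among the new models, Bos_taurus_newGene_29348 had 361, 114 and 114 counts at 6 months and 0 in all 3 libraries of 30 months, at least 65.8-fold lower against the floor of 3 counts per library. Bos_taurus_newGene_82636 had 66, 38 and 93 counts against 0 in all 3, at least 23.3-fold lower. Both models passed the expression filter only through the 6-month libraries, which fixed their non-overlap. In the pituitary of 6 and 30 months they had counts in 1 library each, the 6-month replicate 2, with 68 and 3. Bos_taurus_newGene_23927 was at 105, 17.1 and 47.8 CPM against 0.0899, 1.11 and 1.31 CPM, and its 6-month libraries differed more from each other than those of the other lower models named.

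The 10 abundant non-overlapping models differed by 1.16-fold to 1.89-fold. Gene11151, of 6267 bases on chromosome 9, was at 1317, 1372 and 1315 CPM at 6 months and 1719, 1779 and 1793 CPM at 30 months, 1.32-fold higher with an SD of 32.6 and 39.2 CPM (n = 3 each; edgeR adjusted p = 0.979). Its exonic sites did not follow, at 34.5, 22.6 and 41.97 RPM against 77.7, 7.81 and 39.5 RPM, with overlap. Gene10104, of 2342 bases on chromosome 8 (sites from 11044055 to 11061265), was at 1356, 1337 and 1371 CPM against 1461, 1907 and 1380 CPM, where T6 and T18 nearly met. Its exonic sites were wider apart, at 248, 299 and 286 RPM against 586, 410 and 446 RPM, and its pituitary did not overlap either, at 947, 993 and 799 CPM against 1211, 2594 and 1315 CPM. Gene25105, of 2795 bases, was at 633, 627 and 591 CPM against 869.5, 657 and 807 CPM. Gene15401, of 5095 bases on chromosome 13, was held wide by T6, at 432, 582 and 188 CPM against 783, 661 and 832 CPM, and its site reads overlapped, with T16 at 1127 RPM between T6 at 477 RPM and T2 at 1495 RPM. Gene14063, of 7578 bases, was at 386, 458 and 442 CPM against 465, 472 and 561 CPM.

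Of the abundant lower models, gene10707 had the largest step. This model of 5430 bases on chromosome 8 (sites from 75050550 to 75166158) was at 1970, 1347 and 1239 CPM at 6 months and 764, 1125 and 537 CPM at 30 months, with a difference of -0.91 ± 0.34 (log2, SE; edgeR adjusted p = 0.979). T16 was the 30-month library nearest to the 6-month ones, and in site reads it lay among them, at 535 RPM beside 577, 503 and 581 RPM. Gene23011, of 10970 bases on chromosome 19, was at 557, 436 and 426 CPM against 312, 414 and 289 CPM, and its site reads also did not overlap, at 626, 519 and 497 RPM against 385, 473 and 423 RPM. Gene3198 was at 619, 484 and 694 CPM against 469, 409 and 482 CPM, gene4730 at 690, 519 and 494 CPM against 490, 436 and 478 CPM, and gene6078 at 531, 520 and 527 CPM against 393, 513 and 376 CPM. In these 3 models the nearest libraries of both ages nearly met, and the site reads of gene3198 and gene4730 overlapped.

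Reads at SNP sites gave a second view of the non-overlapping models. By sites alone, 469 of 8246 models were non-overlapping higher at 30 months (5.69%) and 319 lower (3.87%). Of the 278 models of this set that were higher by counts, 70 were also non-overlapping higher by sites (25.2%) and 4 were opposite. Of the 267 lower by counts, 75 were lower by sites (28.1%) and 4 were opposite. The sign of the site difference matched in 79.9% of the higher and 82.8% of the lower models, where 55.1% and 44.9% of all 8246 models had that sign. The median log2 difference of the higher models was 0.36 by counts and 0.28 by sites, and that of the lower models was -0.45 and -0.29, beside medians of 0.00 and 0.05 over all. Both readouts come from the same libraries, so this is no independent replication. Of the higher models more than 2-fold apart by counts, 12 of 24 had a site difference of more than 0.5 times the count difference on the log2 scale, and of the lower ones 16 of 35.

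**Figure D3:**
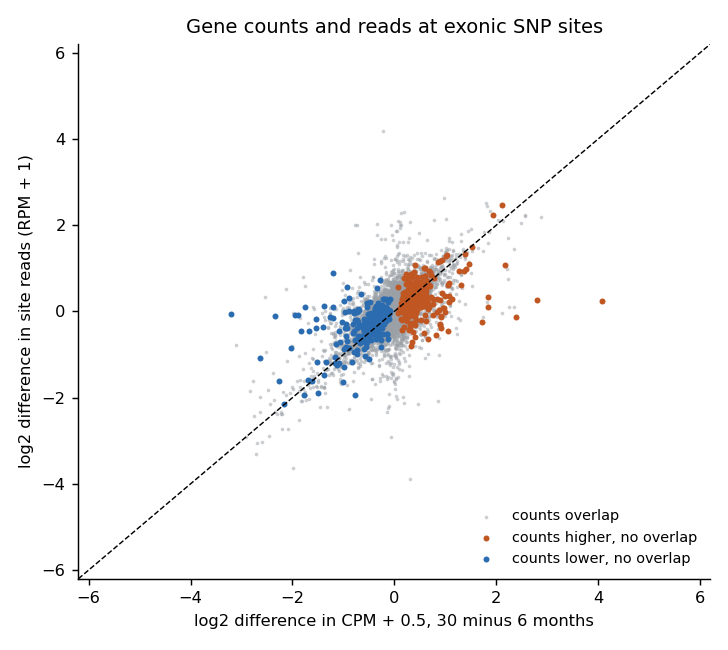
Each point is 1 of 8246 gene models, with the log2 difference between 30 and 6 months in counts (CPM + 0.5) on the x axis and in reads at exonic SNP sites (RPM + 1) on the y axis; the dashed line marks equal differences. Orange and blue points are the 278 higher and 267 lower models with non-overlapping counts, most of them on the same side of 0 by both readouts, with some far from 0 by counts and near 0 by sites.

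The higher non-overlapping models were slightly shorter in the median than the models tested, and the lower ones were close to them. The median length was 4458 bases for the higher (quartiles 2346 and 8093) and 4770.5 bases for the lower (2583 and 9108), beside 4870 bases for all 18088 models (2588 and 9038). The 95% intervals of these medians, which treat models as independent, were 4028 to 4722 bases for the higher and 4352 to 5406 for the lower. Under 1 kb, 40 of 763 models were higher (5.24%) and 24 lower (3.15%), and from 10 to 20 kb, 94 of 3038 were higher (3.09%) and 104 lower (3.42%). Over 20 kb, 34 of 798 were higher (4.26%) and 25 lower (3.13%), so the higher share did not fall steadily with length. The models with an unadjusted p under 0.05 went the other way, with medians of 6937 bases for the 234 higher and 5146 for the 293 lower. Of new models 5.82% were higher and 3.85% lower (142 and 94 of 2439), and of annotated models 3.50% and 3.45%. Among annotated models alone the medians were 4571.5 bases for the higher (95% interval 4049 to 4937) and 5234 for the lower (4683 to 5780), beside 5015 for all. The interval of the lower ones held the median of all, and that of the higher ones lay below it. Of the 2514 models above a mean of 100 CPM, 1.55% were higher and 3.18% lower. With 1 library left out, the order of the medians changed only without T16 (6448 bases for the higher, 4407.5 for the lower) and without T4 (4991 and 4561). Without T2, T6, T14 and T18 the higher models stayed the shorter ones. Their medians were then 4582, 3924.5, 4296.5 and 4213 bases, beside 4915, 5074, 4919 and 5156 for the lower. These shares and medians are descriptions, without a test.

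SNP sites placed 14191 of the tested models on the numbered chromosomes or X, with 494 of the higher (3.48%) and 493 of the lower (3.47%). Of the 3881 tested models with no site to place them, 195 were higher (5.02%) and 141 lower (3.63%). The chromosomes carry the names that the site table uses. The share of lower models was largest, and that of higher ones smallest, on chromosome 20, with 14 lower (6.51%) and 1 higher (0.465%) of 215. On chromosome 16 there were 25 lower (5.76%) and 14 higher of 434, on chromosome 26 there were 15 lower (5.64%) and 6 higher of 266, on chromosome 2 there were 26 lower (4.23%) and 11 higher of 615, and on chromosome 10 there were 26 lower and 13 higher of 615. Chromosome 25 was the reverse, with 29 higher (5.34%) and 11 lower (2.03%) of 543. Chromosome 18 had 38 higher (4.64%) and 20 lower of 819, chromosome 23 had 17 higher and 6 lower (1.46%) of 412, and chromosome 5 had 40 higher (5.13%) and 26 lower of 779. Chromosome 14 had 15 lower (4.63%) and 7 higher (2.16%) of 324. Other chromosomes were above the share of all placed models in both directions. Chromosome 28 had 11 lower (5.12%) and 9 higher (4.19%) of 215, and chromosome 24 had 9 lower and 9 higher (4.52% each) of 199. X, with 16 higher and 22 lower of 528, was near the rest. In all, 13 of 30 chromosomes had more higher and 15 more lower models. These are plain counts, and dependence between neighbouring models was not allowed for.

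**Figure D4:**
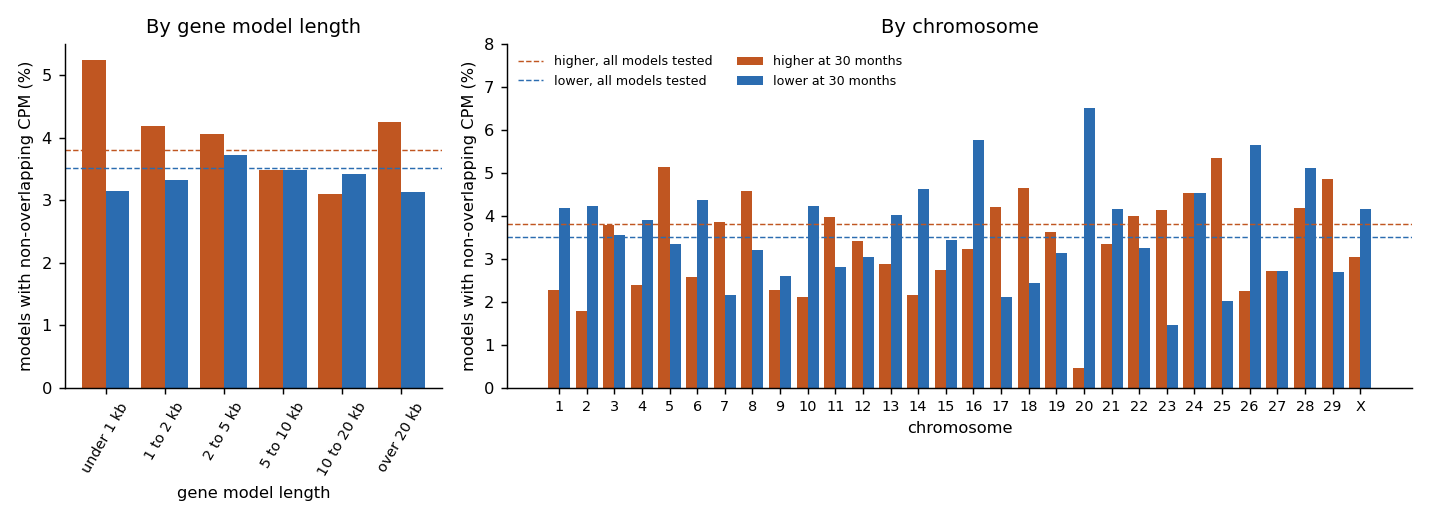
Bars give the percent of tested gene models with non-overlapping CPM, orange for higher and blue for lower at 30 months, by model length (left) and by chromosome (right); dashed lines mark 3.81% and 3.51%, the shares over all 18088 models. The chromosome bars hold only models placed by SNP sites, of which 3.48% were higher and 3.47% lower. The higher share is 5.24% under 1 kb, 3.09% from 10 to 20 kb and 4.26% over 20 kb, and chromosome 20 has 0.465% higher and 6.51% lower.

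The pituitary of the same 6 cows was compared in the same way. Of 17466 models tested in both tissues, 7.58% were non-overlapping higher and 7.49% lower at 30 months in the pituitary. Of the 669 models higher in the hypothalamus, 96 (14.3%) were higher in the pituitary and 19 (2.84%) lower, and of the 598 lower in the hypothalamus, 88 (14.7%) were lower in the pituitary and 21 (3.51%) higher. The 96 were 7.25% of the higher pituitary models and the 88 were 6.72% of the lower ones. The tissues share cows, so the differences between the cows of the 2 age groups enter both. Whether the age difference itself differed between tissues was tested in edgeR over the 12 libraries. Of 19119 models, 1 (0.00523%) passed an adjusted p under 0.05, and 671 had an unadjusted p under 0.05 where 5% would be 955.95. That model was gene4067, with a difference of 2.05 ± 0.20 (log2, SE; adjusted p = 0.0134). With the cow as a block its adjusted p was 0.213, and with all 18 libraries fitted it was 0.99996. Leaving out 1 library at a time gave adjusted p values of 0.0214 to 0.104. These were above 0.05 without T2, T4 or T14 and without any of the pituitary libraries but replicate 2 of 30 months. The adjusted p was 0.0175 with another library scaling (RLE), 0.0196 with no filter on low counts and 1.24e-19 by DESeq2. The estimate of the difference ran from 1.95 to 2.12 over all these settings.

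The libraries differed in how far they stood from the others of their age. A library is counted as apart in a model where it lay more than 2-fold above, or more than 2-fold below, both other libraries of its age. T16 was apart in the most models, 3317 (18.3%), at 30 months, beside 1078 for T18 and 893 for T14. At 6 months T6 was apart in 2143 and T4, which lay across from T2 and T6 on the first component, in 2120. T2 was apart in 1189 (6.57%), close to T18, and so stood out less than T4. T16 was above in 1515 models of median length 3694 bases and below in 1802 of median length 5284 bases. Without T16, 3349 models were non-overlapping higher (18.5%, median length 6448 bases) and 3204 lower (17.7%, 4407.5 bases). By edgeR without T16, 2252 had an unadjusted p under 0.05, with 0 at an adjusted p under 0.05. Without T2 there were 1257 higher (6.95%) and 1097 lower (6.06%), and without T6 1426 (7.88%) and 1499 (8.29%). Without T4 there were 2128 (11.8%) and 1881 (10.4%), without T14 1092 (6.04%) and 1070 (5.92%), and without T18 1081 (5.98%) and 984 (5.44%). With 5 libraries non-overlap is easier to meet, so these shares cannot be set against the number expected for 6 libraries in random order.

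The models in which T2, T6 and T16 stood farthest from the rest of their age were at a few or no counts in one cow and abundant in another. For T2 they were gene8839, Bos_taurus_newGene_58523 and gene14491. Gene8839, of 1069 bases placed on chromosome 7, had 11 counts in T2 beside 4011 in T4 and 8070 in T6, and 5112, 7860 and 4672 at 30 months. Its pituitary had 4907, 3689 and 14 counts at 6 months and 4537, 33 and 4997 at 30 months, so the cows low in one tissue were not those low in the other. Bos_taurus_newGene_58523 had 0 counts in T2, 1173 in T4 and 203 in T6, and 1083, 997 and 81 at 30 months. Gene14491, of 8151 bases on chromosome 11, had 91 counts in T2 and 38 in T18 beside 6542 to 15561 in the other 4 libraries. Reads at its 10 exonic sites were 482 in T2 and 711 in T18, beside 532 to 1196 in the others.

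For T6 the models were gene13681, gene12680 and Bos_taurus_newGene_44233. Gene13681, of 3763 bases, had 1 count in T6 beside 3934 in T2 and 3749 in T4. In the pituitary of the T6 cow gene13681 also had 1 count, and in that of the T18 cow it had 1 while T18 had 2906. Gene12680, of 8875 bases on chromosome 10, was the reverse, with 2716 counts in T6 beside 1 in T2 and 1 in T4, and 1250, 1 and 35 counts in T14, T16 and T18. Its 15 exonic sites had 225, 360 and 325 reads at 6 months and 295, 290 and 237 at 30 months. The libraries with 1 count of gene12680 thus had 225 to 360 reads at its sites. Bos_taurus_newGene_44233 had 1472, 1644 and 0 counts at 6 months and 1886, 0 and 2 at 30 months.

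For T16 the models were Bos_taurus_newGene_48409, Bos_taurus_newGene_81801 and gene9580, and all 3 were low in T2 or T6 as well. Bos_taurus_newGene_48409 had 0, 1494 and 106 counts in T2, T4 and T6 and 1726, 0 and 2760 in T14, T16 and T18. Bos_taurus_newGene_81801 had 0, 975 and 0 counts against 1735, 0 and 1415, and gene9580 had 0, 528 and 0 against 1972, 0 and 544. The counts of the last 2 models follow the split of the libraries and not their age. Gene9580, of 4708 bases on chromosome 7 (sites from 54152604 to 54281674), nevertheless had 1062, 1035 and 1079 reads at its 25 exonic sites in T2, T6 and T16, where its count was 0, and 2000, 1593 and 1373 reads in T4, T14 and T18. By sites T2, T6 and T16 were lower than the other 3 libraries by less than 2-fold. Over the 8246 models with sites, 35 (0.424%) had at most 3 counts and at least 50 site reads in the same library, in 6 to 13 models a library. Of the 35, 3 had non-overlapping counts, beside 278 higher (3.37%) and 267 lower (3.24%) of all 8246. So few models do not set the 35 apart from the rest. How the deposited counts assigned reads between overlapping models is not given in the sources used here, and its part in these values was not tested.

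**Figure D5:**
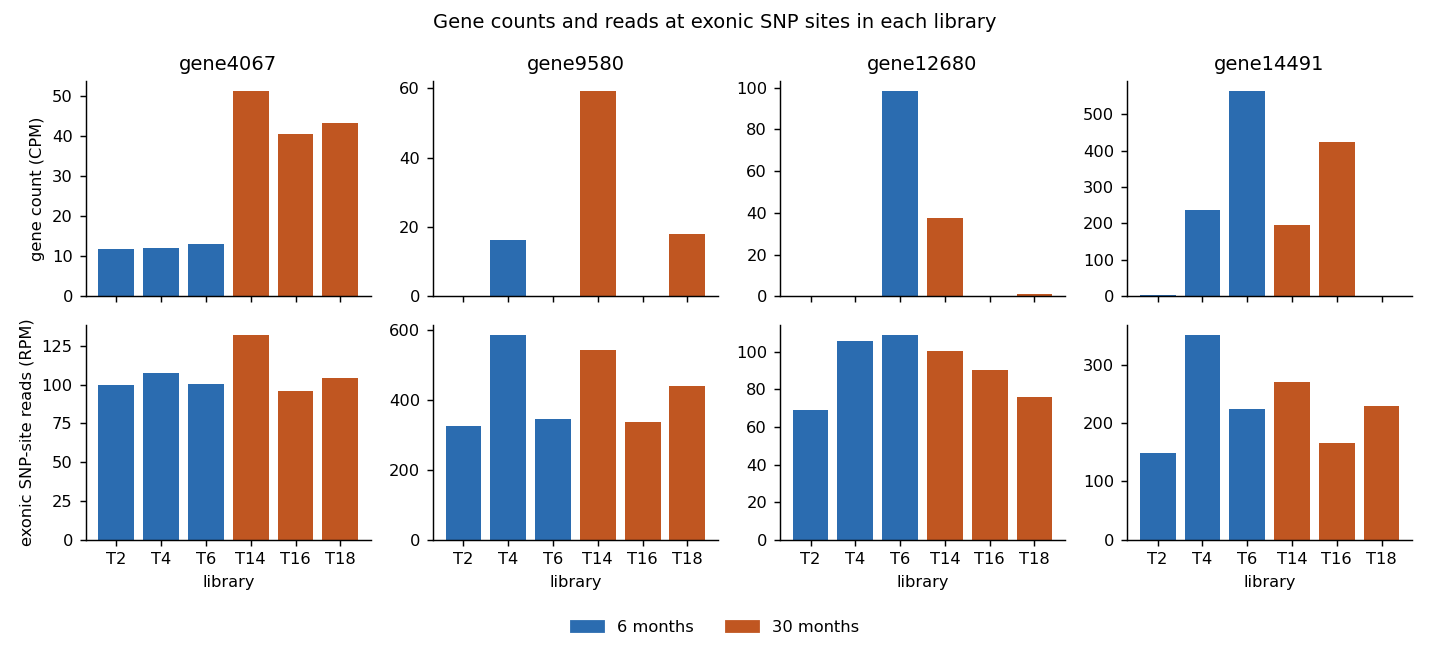
Bars give, for 4 gene models in each of the 6 libraries (blue 6 months, orange 30 months), the gene count in CPM (top) and the reads at exonic SNP sites in RPM (bottom). Gene4067 steps with age in counts and overlaps between ages by sites, and gene9580, gene12680 and gene14491 have counts at or near 0 in libraries where their sites are read.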

How the data were processed

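Read counts of 27376 gene models, as whole numbers, were deposited with each model's length, per the file headers, and the authors' FPKM were deposited for the same models. A deposited SNP table gives read counts per site and library. Per the submitters' processing notes, the tools included StringTie, HISAT2, DESeq and GATK; their roles, versions, genome build and annotation are not given in the sources used here. Coordinates are those of the SNP table, whose build is not named.

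Sample codes in the titles matched each column to a sample. The 6 libraries were fitted alone with edgeR 4.0.16 (quasi-likelihood test, TMM, filterByExpr, 4 residual degrees of freedom, R 4.3.3), with Benjamini-Hochberg adjustment and no covariate; all CPM of these libraries use those factors, and CPM of the 18-month and pituitary libraries use factors over all 18. Replicate numbers pair no cows across ages; across tissues, cows were paired by genotype. Named models were, among non-overlapping models, the 10 higher and 10 lower with the smallest unadjusted p under 0.05 and a mean of at least 1 CPM, the 5 higher and 5 lower with the highest mean CPM, and for T2, T6 and T16 each the 3 models above a mean of 10 CPM lying farthest from both other libraries of the age. Rules and lists were chosen with earlier results of these data known. A list of cell type markers could not be run without gene symbols. Site positions are those of SNP sites annotated to a model; reads at exonic sites were summed per model, so a read over several sites counts more than once. The fits were also run on simulated counts, drawn separately for each library and so without the split of the libraries seen here. That run cannot show how the test behaves under such a split. Alternatives used DESeq2 1.42.0 and limma 3.58.1.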

Additional observations from a re-analysis of the deposited data

Results flagged for a closer look

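The age difference of gene4067 differed between the hypothalamus and the pituitary of the same cows (edgeR interaction over 12 libraries, adjusted p = 0.0134). This call was lost with the cow as a block (adjusted p = 0.213) and with all 18 libraries fitted (adjusted p = 0.99996), while the log2 estimate stayed at 2.05 in both. Gene4067 is the only model flagged. It was at 11.9, 11.9 and 13.02 CPM against 51.2, 40.5 and 43.3 CPM in the hypothalamus, and its pituitary difference was -0.17 on the log2 scale. Reads at its exonic sites in the hypothalamus overlapped between the ages.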

How the results depend on the processing

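The 30 models named for non-overlap or abundance kept their direction in all 596 pairings of a model with another setting. They were chosen for non-overlap in these same libraries, so their direction could hardly change, and this is no support for them. In 21 of the pairings an adjusted p went under 0.05, 20 by DESeq2 and 1 by limma-trend. The count at an adjusted p under 0.05 stayed at 0 under other scalings and filters, limma-voom, wider sets of libraries and each left-out library; it was 43 by DESeq2 and 1 (gene11043) by limma-trend on log2(FPKM + 0.1). The count at an unadjusted p under 0.05 was 832 by DESeq2 and 2508 by limma-voom with quality weights. It ran from 314 (without T14) to 2252 (without T16) with 1 library left out, was 321 without T18 and 1121 without T4, and was 1603 without T2, T6 and T16 together, where the single 6-month library was assumed to vary like those of 30 months. With the intronic share as a covariate it was 668, with 0 at an adjusted p under 0.05. These last 2 alternatives were chosen after seeing the data. Leaving out 1 library gave 1081 to 3349 non-overlapping higher models (5.98% to 18.5%) and 984 to 3204 lower ones (5.44% to 17.7%). This was partly because fewer libraries have to be apart. The median lengths of the higher models then ran from 3924.5 bases (without T6) to 6448 bases (without T16). Median lengths of the higher and lower models were 3677 and 3755 bases with no filter on low counts and 4945 and 5597 bases with at least 1 CPM in 3 libraries. By site reads, 319 models were lower, and the median lengths were 6046 and 6611 bases among the models with sites. The difference between tissues was called in 0 models with the cow as a block, in 0 with all 18 libraries fitted, in 17 by DESeq2, and in 0 to 3 with 1 library left out. No paired analysis was possible for the ages because the cows of 6 and 30 months are different animals. The causes of these shifts were not tested. At 29773484 to 33502113 counts per library, the filter left models of few counts untested.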
